A study of Mus musculus with 12 samples.

Results

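Claudins and occludin are the membrane proteins of tight junctions, the seals that join neighbouring epithelial cells near their outer face. The 9 genes described here are the claudins Cldn1, Cldn3, Cldn4, Cldn7, Cldn8, Cldn12 and Cldn23, occludin (Ocln) and the scaffold gene Tjp1, which encodes ZO-1, among 18193 genes tested. They were listed by name, and each was read from its single-gene probe set of highest mean signal (a probe set is the group of short probes that reads 1 transcript on the array). Keratinocyte fractions were sorted from the back skin of mice with 4 transgenes that every group shares. K5-tTA drives pTRE-H2B-GFP, a GFP-tagged histone, from a keratin promoter of basal keratinocytes. K14-CreER is a tamoxifen-dependent recombinase under another such promoter, and it acts on the reporter Rosa-tdTomato. All animals were fed doxycycline (1 g/kg in the diet) over 2 weeks, which represses the histone gene, and given 1 tamoxifen dose of 75 mg/kg. They were taken 1 week later, at second telogen, the resting phase of the hair cycle. The labels do not give the age in days, the sorting gates or whether each sample is its own animal. The p-values therefore cover the spread of these samples alone.

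The 5 groups were LRC and non-LRC cells of BL (n = 3 each), LRC and non-LRC cells of SL (n = 2 each), and GL (n = 2). BL is taken to be the basal, SL the spinous and GL the granular layer, and LRC to mean label-retaining cell, from what is known of the study. Label-retaining cells keep the H2B-GFP protein because they divide infrequently, while non-LRC cells have diluted it by dividing. Values are linear array intensities, and each array has its own background, 22.4 to 42.6 units, set from bacterial probe sets. BioB, a hybridisation control, averaged 495 ± 29.5 units on 4 arrays (SD, BL LRC 1, BL non-LRC 1 and both SL non-LRC) and 3370 ± 305 units on the other 8. On BL LRC 1 and BL non-LRC 1, 0 of 3 Y-linked genes were above background, against 3 of 3 on every other array, and leaving either array out ended no call of the 9 genes. Within SL these array sets coincide with the LRC and non-LRC groups, so array set and label cannot be told apart there. The 6 basal markers were Krt5, Krt14, Krt15, Itga6, Itgb4 and Col17a1. Their summed level lay at 92050 to 122722 units in BL, 83501 to 95686 in SL and 69065 to 71042 in GL. Basal transcripts were thus present in every fraction, though 4 of the 6 markers were called lower in GL vs BL. Col17a1 measured 15711 to 24708 units in BL, against 3025 and 3859 in GL. Krt14 did not fall, at 22527 to 25392 units in BL and 24820 and 26667 in GL. The 6 spinous markers summed to 58985 to 108883 units in BL, 78747 to 137929 in SL and 101345 to 105311 in GL, with BL and SL overlapping. The summed level of 6 granular markers was 2436 to 5216 units in BL, 4137 to 9694 in SL and 9618 to 17472 in GL. In GL vs BL 5 of the 6 were called higher and 1 lower. Tgm3, much of the BL sum, went the other way, at 1566 to 4444.5 units in BL against 354 and 365 in GL. Klk7, most of the GL sum, measured 204 to 373 units in BL and 10668 and 6593 in GL.

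In skin, tight junctions work in the granular layer, where they limit the loss of water and solutes between cells. Claudins form the paired strands and set which ions and water pass, occludin joins the strands, and ZO-1 tethers them to actin from the cytoplasmic side. Claudin-1 is known to be made in every living layer of the epidermis, also below the one where functional junctions form. In sorted bulk samples, fewer cells of a type and less RNA per cell cannot be told apart.

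Of the 4 genes that were higher in the suprabasal fractions, 3 had RefSeq promoter windows, and these are printed because Cldn1, Cldn4 and Ocln were called in the same direction across the layers. Each holds the 250 bases before the annotated start, 5′ to 3′ on the gene's strand in build GRCm38.p6, with any match to a searched motif in capitals. The Cldn1 window is chr16:26371840-26372089 on the minus strand, the Cldn4 window chr5:134946935-134947184 on the minus strand, and the first Ocln window chr13:100552719-100552968 on the minus strand.
Cldn1: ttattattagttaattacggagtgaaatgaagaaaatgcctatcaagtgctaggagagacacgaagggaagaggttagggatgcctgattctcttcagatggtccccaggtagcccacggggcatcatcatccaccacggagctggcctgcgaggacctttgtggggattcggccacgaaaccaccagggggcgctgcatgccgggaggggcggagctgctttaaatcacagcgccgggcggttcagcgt
Cldn4: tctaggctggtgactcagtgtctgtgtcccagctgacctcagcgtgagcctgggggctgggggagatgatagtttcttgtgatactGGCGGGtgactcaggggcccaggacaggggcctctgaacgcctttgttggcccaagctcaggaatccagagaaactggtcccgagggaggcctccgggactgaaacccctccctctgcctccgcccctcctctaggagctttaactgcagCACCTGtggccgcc
Ocln: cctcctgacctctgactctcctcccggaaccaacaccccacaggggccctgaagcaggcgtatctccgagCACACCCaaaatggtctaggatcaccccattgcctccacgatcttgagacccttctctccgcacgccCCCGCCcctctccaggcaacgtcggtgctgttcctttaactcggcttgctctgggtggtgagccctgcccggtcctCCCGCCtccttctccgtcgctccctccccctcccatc
Motifs were searched on both strands, with no overlap between matches in these windows, among 32851 RefSeq promoters. Capitals in Cldn4 mark GGCGGG, the reverse complement of the GC-rich motif CCCGCC (32.5% of promoters). They also mark CACCTG, the reverse complement of the Snail and Zeb box CAGGTG (17.2%). Capitals in Ocln mark CACACCC, a Klf-type box (6.93%), and CCCGCC. The grainyhead-like motif AACNGGTT (1.79%) and TATAAA (12.4%) matched none of the 3 windows, and Cldn1 held no match to a searched motif. The usual GC box core, GGGCGG, was not among the searched motifs, and it occurs in the Cldn1 window without capitals. A match is a description of these letters and not a site. By the same annotation Cldn4 and Cldn3 are adjacent protein-coding genes on chromosome 5, and Ocln lies next to Marveld2 on chromosome 13.

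The comparison of SL with BL asks which of these genes differ once cells have left the basal layer. Cldn1, Cldn4, Cldn23 and Ocln were higher in SL, and no member was lower. These 4 of 9 stand beside 2.83% of all genes called higher and 2.2% called lower (adjusted p under 0.05 over all genes). The members, and the gene lists below, were chosen with earlier results of these data known. Such counts beside the share of all genes are therefore descriptions and not tests of the set. The members' median log2 difference was 0.31, against 0.00 over all genes. In GL vs BL the same 4 genes and Cldn8 were higher, 5 of 9 beside 8.66% of all genes (8.41% were lower), with a members' median of 0.91 against -0.02 over all genes. In GL vs SL 0 of 9 passed the limma test, beside 8.3% of all genes called in either direction. Without adjustment, 5 members and 3784 of all genes had a p under 0.05. SL vs BL and GL vs BL share the BL samples.

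**Figure D1:**
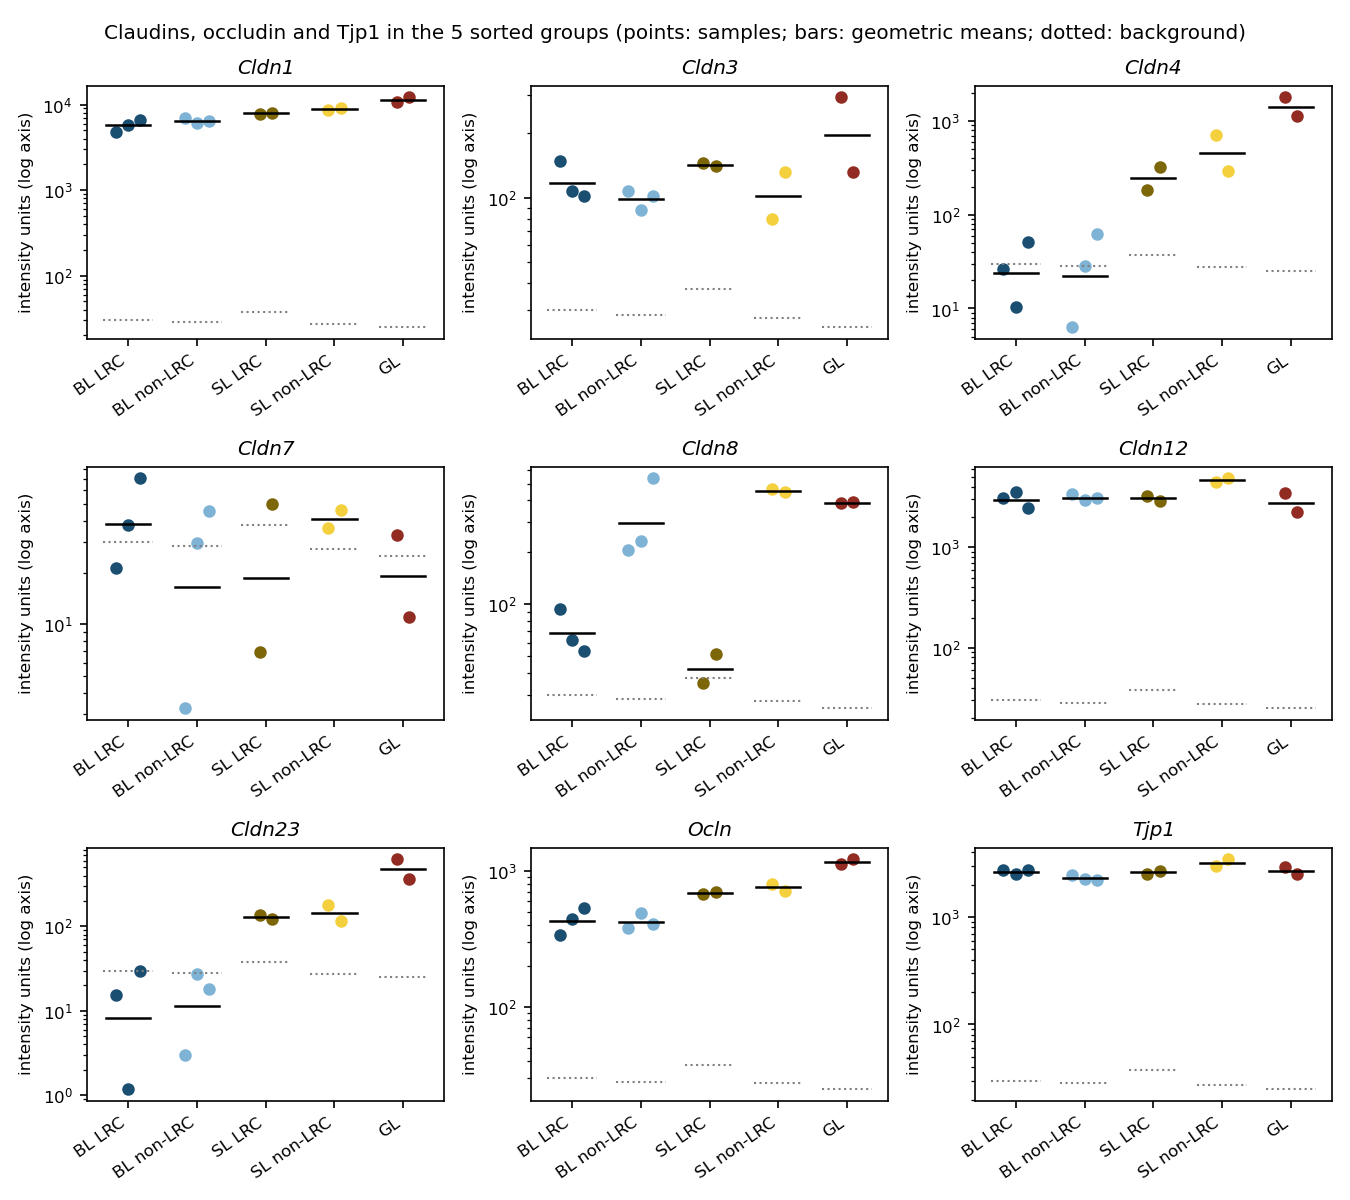
Intensity of the 9 genes on each of the 12 arrays (log axis, 1 panel a gene), with the label groups of BL, then those of SL, then GL. Points are arrays, short bars are geometric group means and dotted lines the mean background of the group. In Cldn1, Cldn4, Cldn23 and Ocln every GL point lies above every SL point and every SL point above every BL point, whereas in Cldn8 the LRC points lie below the non-LRC points of both layers.

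Cldn1 encodes claudin-1, without which newborn mice lose water through the skin and die. In BL LRC it measured 4832, 5787 and 6668 units and in BL non-LRC 6902, 6059.6 and 6392 units. SL LRC gave 7849 and 7985 units, SL non-LRC 8538 and 9232 units, and GL 10773 and 12104 units. The 3 layers did not overlap, and the BL groups overlapped each other. Cldn1 was 1.38-fold higher in SL than in BL (log2 difference 0.47 ± 0.11 SE, adjusted p = 0.0149) and 1.88-fold higher in GL than in BL (0.91 ± 0.14, adjusted p = 0.000126). Its GL vs SL difference of 0.45 ± 0.14 missed the threshold (adjusted p = 0.0673), and passed without BL LRC 1 (0.0422). The SL vs BL call of Cldn1 was lost without SL LRC 1 (adjusted p = 0.0585), SL LRC 2 (0.0684) or SL non-LRC 2 (0.0742). It was also lost with the mean of its 4 probe sets, 2 of which were never above background (0.742, and 0.432 in GL vs BL). Another Cldn1 probe set, above background on all 12 arrays, differed in the same direction, by 0.48 in SL vs BL and 1.09 in GL vs BL.

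Cldn4 encodes claudin-4, a strand protein that also binds the Clostridium perfringens enterotoxin. Cldn4 lay near background in the basal layer, at 26.4, 10.4 and 51.1 units in BL LRC and 6.32, 28.7 and 62.4 units in BL non-LRC. It reached 185 and 321 units in SL LRC, 715 and 293 units in SL non-LRC, and 1781 and 1124 units in GL. It was above background on 2 of 6 BL arrays and on every SL and GL array, and the layers did not overlap. The log2 difference was 3.84 ± 0.59 in SL vs BL (adjusted p = 0.000641) and 5.93 ± 0.74 in GL vs BL (adjusted p = 2.3e-05), sizes that rest on basal values at background. With values below background raised to it, the differences were 3.13 ± 0.39 and 5.22 ± 0.50. In GL vs SL Cldn4 differed by 2.08 ± 0.79 (adjusted p = 0.127), and it passed with raised values (0.012) and without BL non-LRC 1 (0.0466).

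Cldn23, a less studied claudin, had the same order of layers. It measured 15.3, 1.18 and 29.5 units in BL LRC and 3.03, 27.1 and 17.9 units in BL non-LRC, above background on 1 of 6 arrays. SL LRC had 138 and 121 units, SL non-LRC 180.3 and 115 units, and GL 621 and 363 units, all above background. The layers did not overlap. The log2 difference was 3.83 ± 0.81 in SL vs BL (adjusted p = 0.00907) and 5.63 ± 1.03 in GL vs BL (adjusted p = 0.00088). Raising values to background reduced them to 2.21 ± 0.35 and 4.02 ± 0.44. GL vs SL gave 1.80 ± 1.09 (adjusted p = 0.39), and 0.0147 with raised values. The SL vs BL call was lost without SL non-LRC 1 (0.0565).

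Ocln encodes occludin, which spans the membrane 4 times. It measured 338, 443 and 528 units in BL LRC and 378, 488 and 403 units in BL non-LRC. SL LRC had 673 and 694 units, SL non-LRC 799.6 and 707 units, and GL 1119.6 and 1206 units. The layers did not overlap, while LRC and non-LRC overlapped in BL. Ocln was 1.69-fold higher in SL than in BL (0.75 ± 0.18, adjusted p = 0.0198) and 2.73-fold higher in GL than in BL (1.45 ± 0.23, adjusted p = 0.000225), whereas GL vs SL gave 0.70 ± 0.24 (adjusted p = 0.0927). The SL vs BL call was lost without SL LRC 1 (0.0654), SL LRC 2 (0.0756) or SL non-LRC 1 (0.0986). A second Ocln probe set differed in the same direction, by 0.65 in SL vs BL and 0.77 in GL vs BL.

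**Figure D2:**
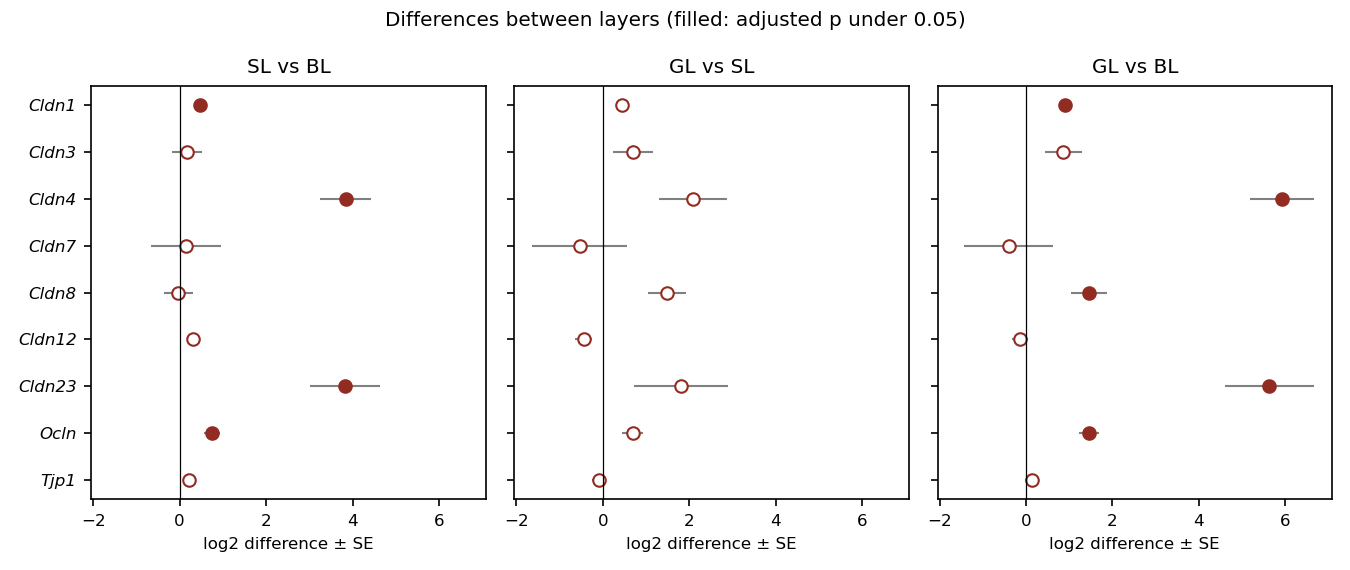
Log2 differences of the 9 genes (x axis) in SL vs BL, GL vs SL and GL vs BL, with bars of 1 SE from the limma fit and filled points where the adjusted p was under 0.05. Cldn4 and Cldn23 have the largest differences, 5.93 ± 0.74 and 5.63 ± 1.03 in GL vs BL, and Cldn1 and Ocln have smaller ones with narrower bars.

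The GL fraction also held transcripts of other cells. The summed level of 5 Langerhans and myeloid markers (Cd207, Cd74, H2-Aa, Csf1r and Ptprc) was 840 to 2198 units in BL, 837 to 6639 in SL and 22326 to 46088 in GL, and 5 of 5 were called higher in GL vs BL. In SL LRC, Cd207, Csf1r and Ptprc were never above background. Bulge markers summed to 1596 to 4434 units in BL, 2449 to 9860 in SL and 20181 to 21008 in GL, and 4 of 5 were called higher in GL vs BL. Inner root sheath markers (4 of 4 higher) summed to 92.9 to 303 units in BL, 688 to 1749 in SL and 2275 to 4362 in GL. Melanocyte markers (3 of 4 higher) summed to 191 to 431 units in BL, 269 to 612 in SL and 1523 to 2265 in GL. T cell markers (2 of 3 higher) summed to 3744 to 7685 units in BL, 1971 to 4185 in SL and 6656 to 20779 in GL. Thy1, most of the BL sum, measured 3144 to 7216 units in BL and 5220 and 1372 in GL. Cd3e measured 152 to 486 units in BL and 6784 and 1894 in GL. Cd3g measured 216 to 471 units in BL and 8775 and 3389 in GL. Of 9 infundibulum and sebaceous gland markers, 5 were higher and 1 lower in GL vs BL. They summed to 16619 to 65697 units in BL, 32673 to 85051 in SL, and 61578 and 61620 in GL, with all 3 layers overlapping. The part of these cells in the GL values of Cldn1, Cldn4, Cldn8, Cldn23 and Ocln was not tested.

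Label retention within a layer was compared next. Of the 9 genes, 1 was lower in LRC than in non-LRC cells, in both layers, and it was Cldn8 each time. This is 1 of 9 beside 1.23% of all genes called lower in BL and 2.7% in SL, and no member was higher (0.308% and 1.49% of all genes). Cldn8 encodes claudin-8, known from the distal kidney tubule, where it keeps ions from passing between cells.

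Cldn8 measured 94.5, 62.4 and 53.8 units in BL LRC, against 206, 233 and 535 units in BL non-LRC. In SL it measured 34.8 and 51.5 units in LRC, against 464 and 447 units in non-LRC. LRC and non-LRC did not overlap in either layer, and 1 of the SL LRC arrays was below its background. BL LRC were lower than BL non-LRC by a log2 difference of -2.11 ± 0.42 (adjusted p = 0.0144), 0.231 of the non-LRC level. SL LRC were lower than SL non-LRC by -3.43 ± 0.52 (adjusted p = 0.00112), or -3.28 ± 0.55 with values raised to background. The difference between these label effects was -1.31 ± 0.67 (adjusted p = 0.739), and 0 of 9 members passed that test, as did 0.0% of all genes. At an unadjusted p under 0.05 stood 1 member (Tjp1) and 1291 genes in all.

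The BL difference of Cldn8 was -1.12 on the low-BioB arrays (1 against 1) and -2.61 on the high-BioB arrays (2 against 2). Its call was lost without BL LRC 2 (adjusted p = 0.058), BL LRC 3 (0.0758) or BL non-LRC 3 (0.11). The SL call was kept with every array left out in turn (highest adjusted p 0.0203).

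GL held Cldn8 at 388 and 389 units, between SL LRC and SL non-LRC and inside the BL non-LRC range. GL vs BL was called at 1.45 ± 0.42 (adjusted p = 0.0242), although the ranges overlap. That call was lost without GL 1 (0.152) or GL 2 (0.138). SL vs BL was -0.03 ± 0.33 (adjusted p = 0.983) and GL vs SL 1.48 ± 0.45 (adjusted p = 0.0508), each averaging LRC and non-LRC groups that lie far apart. The GL vs SL difference passed without BL LRC 1 (0.0485), BL non-LRC 1 (0.0489) or BL non-LRC 3 (0.0344), arrays that enter it only through the shared spread.

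As a sum, infundibulum and sebaceous gland markers were, like Cldn8, lower in LRC than in non-LRC cells of each layer. The summed level of the 9 markers was 16619 to 18978 units in BL LRC, against 36069 to 65697 in BL non-LRC, and 32673 to 33269 in SL LRC, against 75780 to 85051 in SL non-LRC. In each layer 7 of 9 were called lower in LRC. The sum was higher in SL LRC than in BL LRC, whereas Cldn8 was lower (34.8 and 51.5 against 53.8 to 94.5 units). Pparg, a regulator of sebocytes, was never above background in BL LRC and measured 331, 239.8 and 2440 units in BL non-LRC. In GL the 9 markers summed to 61578 and 61620 units, within the BL non-LRC range, as Cldn8 was. Single markers did not all follow. Pparg measured 10.5 and 32.2 units in GL, and Scd1 3286 and 4145, against 9589 to 23812 for Scd1 in BL non-LRC. Krt79, at 20541 and 18767 units in GL, lay above its BL non-LRC values of 4481 to 8887. Other lists also differed by label, in either direction. Spinous markers summed to 87534.5 to 108883 units in BL LRC, against 58985 to 80707 in BL non-LRC (2 of 6 called higher). In SL they summed to 127503 to 137929 units in LRC, against 78747 to 92120 in non-LRC (3 of 6 higher). Bulge markers summed to 1596 to 2034 units in BL LRC, against 3038 to 4434 in BL non-LRC (1 of 5 called lower). In SL they summed to 2449 to 2808 units in LRC, against 8647 to 9860.1 in non-LRC (2 of 5 lower). The list's median log2 difference by label was -0.002 in BL and -0.82 in SL. Sox9 measured 502 to 617 units in BL LRC, against 1701 to 2973 in BL non-LRC. Cd34, a dim marker, went the other way in SL, at 48.0 and 43.6 units in LRC against 2.82 and 15.5 in non-LRC. Langerhans and myeloid markers summed to 837 to 1057 units in SL LRC, against 2615 to 6639 in SL non-LRC (3 of 5 lower), and melanocyte markers to 269 to 289 units, against 579 to 612 (2 of 4 lower). In BL 0 of 5 and 0 of 4 of these were called. The part of these cells in the Cldn8 difference was not tested.

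**Figure D3:**
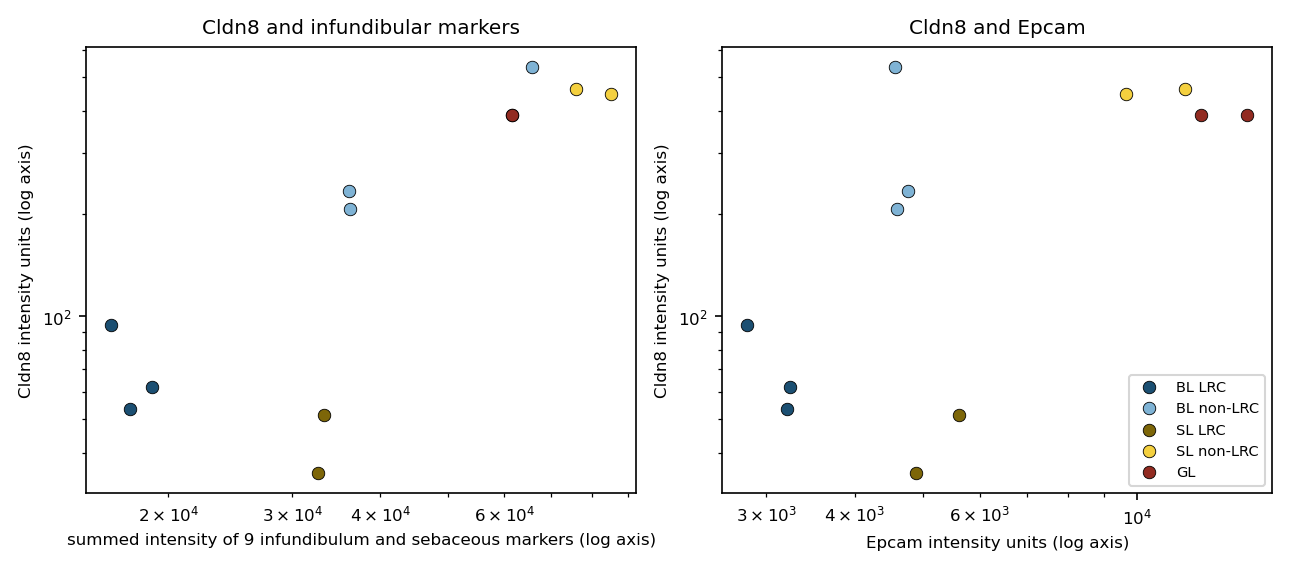
Cldn8 intensity on each array (y axis, log) against the summed intensity of the 9 infundibulum and sebaceous gland markers (x axis, log), coloured by group. The right panel has Epcam intensity on the x axis. The LRC arrays reach 94.5 units of Cldn8 at most and the non-LRC arrays 206 at least, and on the left the GL points, at 388 and 389 units, cover each other.

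Cldn3, Cldn7, Cldn12 and Tjp1 had no call in any of these comparisons. Cldn3, whose protein seals against ions and shares the enterotoxin receptor role of claudin-4, had a low signal. BL LRC had 148, 107 and 102 units of Cldn3, BL non-LRC 107, 87.7 and 102, SL LRC 145 and 139.8, SL non-LRC 79.6 and 131, and GL 292 and 132. All arrays but GL 1 lay between 79.6 and 148 units, and GL vs BL gave 0.87 ± 0.44 (adjusted p = 0.212). Its other 3 probe sets had larger GL minus BL differences, 1.57, 2.83 and 2.64, above background on 3, 9 and 9 arrays. Their mean with the first was called in GL vs BL (1.98 ± 0.60, adjusted p = 0.0356), so Cldn3 depends on the probe set read.

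Cldn7, whose protein binds EpCAM in other epithelia, was above background on 7 of 12 arrays and never exceeded 70.4 units (BL LRC 3). Both GL arrays had at most 32.9 units and the 6 BL arrays 3.26 to 70.4, so the layers overlapped and no difference was detectable at this signal. Cldn12 encodes a claudin without the C-terminal motif that binds ZO-1. It measured 3258 and 2922 units in SL LRC, against 4456 and 4848 in SL non-LRC, without overlap and without a call (-0.59 ± 0.22, adjusted p = 0.161). GL had 3473 and 2227 units of Cldn12 and the 6 BL arrays 2439 to 3543. A second Cldn12 probe set differed by -0.66 in SL vs BL, against 0.31 for the first, so its direction depends on the probe set read.

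Tjp1 encodes ZO-1, whose PDZ domains hold claudin tails. Tjp1 measured 2501 and 2711 units in SL LRC, against 3017 and 3434 in SL non-LRC. In BL it measured 2712, 2498 and 2757 units in LRC, against 2458, 2255 and 2222 in non-LRC. The label groups did not overlap in either layer and differed in opposite directions, yet neither difference was called (-0.31 in SL, adjusted p = 0.415, and 0.20 in BL, adjusted p = 0.665). GL lay within the SL range, at 2901 and 2522 units, and SL vs BL gave 0.23 ± 0.11 (adjusted p = 0.35).

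**Figure D4:**
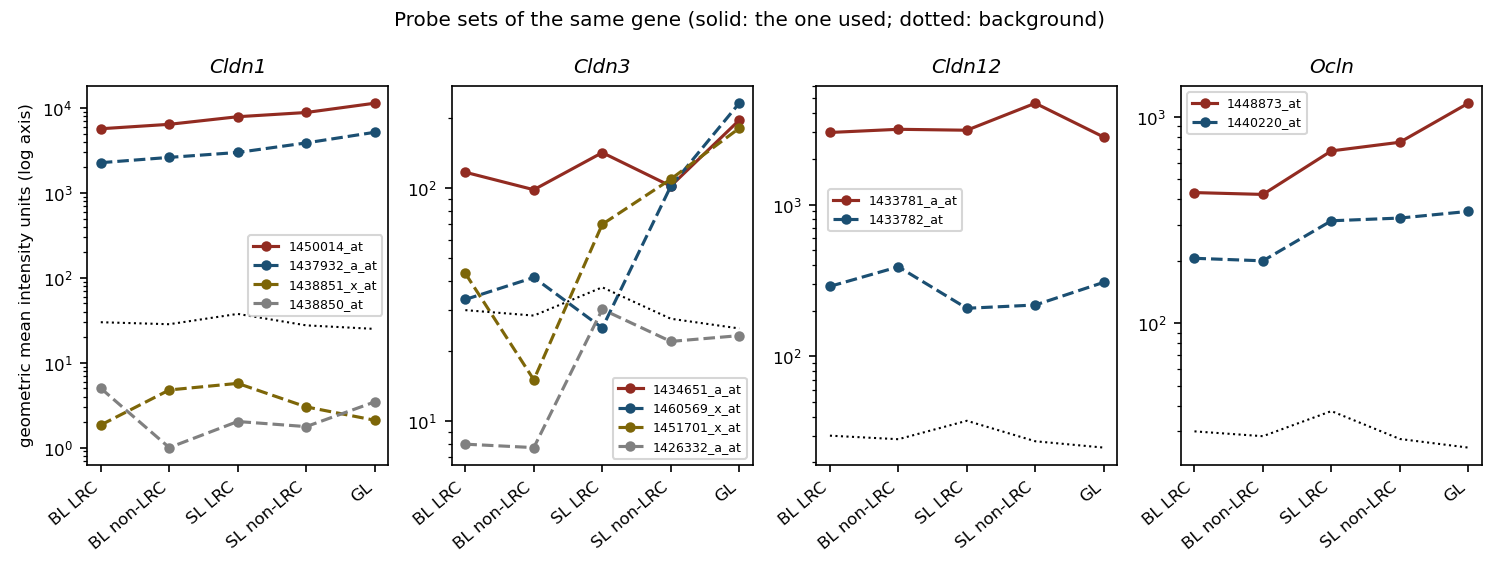
Intensity of every single-gene probe set of the members that have several (Cldn1, Cldn3, Cldn12 and Ocln), as group means (y axis, log) over the 5 groups. Means are geometric, lines are probe sets (solid for the one used) and the dotted line is background. The Cldn3 lines lie apart in BL and 3 of the 4 meet in GL, whereas both Ocln lines end higher in GL than in BL.

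Genes with profiles most like the members' were found by Pearson correlation of log2 values over the 12 samples, among 13614 genes above background on at least 6. These values are descriptions of arrays that share groups, library preparation and array sets. Cldn4 was most like Myo5b, a motor of membrane traffic (r = 0.968), and Cdsn, the adhesion protein corneodesmosin (r = 0.963). Cldn23 was most like Cldn4 itself (r = 0.956) and then Sort1 (r = 0.925). Cdsn measured 53.0 to 217 units in BL, 433 to 3338 in SL, and 9341 and 3119 in GL. Cldn1 was most like Skil (0.959) and Prr9 (0.958), and Ocln most like Phyhip (0.973) and Rai14 (0.969). Cldn8 was most like Epb41l2, a cytoskeletal linker at the membrane (0.961), and Gprin3 (0.951). Among members with no call, Cldn3 was most like Atp6v1g2 (0.901) and Nrd1 (0.881), Cldn7 like Cox7c (0.934) and Rfx4 (0.871), Cldn12 like Smim1 (0.86) and Dus3l (0.857), and Tjp1 like Mustn1 (0.899) and Bloc1s3 (0.861). Epb41l2 measured 86.0 to 156 units in BL LRC, against 239 to 916 in BL non-LRC, and 40.9 (not above background) and 76.3 units in SL LRC, against 415 and 663 in SL non-LRC. These genes were picked for their likeness on the same arrays, so their levels are given without a test.

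The rest of the tight junction was read from 5 lists, 65 genes in all. Among 14 other claudins, 0 were called in SL vs BL and 1 was higher in GL vs BL, where 8.66% of all genes were higher, with a median of -0.27 against -0.02 over all genes. It was Cldn10 (3.81 ± 1.03, adjusted p = 0.0156), at 130.2 and 172 units in GL and above background on 1 of 6 BL arrays. Only 1 of the 14 was above background on all 12 arrays, and 2 never were. Cldn17, Cldn20, Cldn24 and Cldn25 were not analysed here.

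Of 12 other membrane proteins, 1 was higher in SL vs BL, beside 2.83% of all genes, and 4 were higher and 1 lower in GL vs BL, beside 8.66% and 8.41%. The list's median log2 difference was 0.09 in SL vs BL (0.00 over all genes) and 0.64 in GL vs BL (-0.02 over all genes). Marveld2, or tricellulin, seals the corners where 3 cells meet. It measured 1679 and 1586 units in SL LRC and 1290.5 and 1072 in SL non-LRC, against 436 to 1144 units in BL (0.98 ± 0.19, adjusted p = 0.00469). In GL vs BL Marveld2 (0.82 ± 0.24), Crb3 (1.15 ± 0.27), a polarity protein, Lsr (0.73 ± 0.20) and Ildr1 (at least 4.04-fold) were higher, the last 2 being tricellular proteins. Jam3 was at least 1.62-fold lower.

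Of 23 plaque and polarity genes, 2 were higher and 2 lower in SL vs BL, and 3 were higher and 3 lower in GL vs BL. Over all genes 2.83% were higher and 2.2% lower in SL vs BL, and 8.66% and 8.41% in GL vs BL. The list's medians, 0.02 in SL vs BL and -0.06 in GL vs BL, lay near those of all genes (0.00 and -0.02). Cgn, encoding cingulin, which links ZO proteins to myosin, measured 53.3 to 182 units in BL, 263 to 440 in SL, and 608 and 461 in GL. It was higher in SL (1.83 ± 0.33, adjusted p = 0.00245) and in GL (2.51 ± 0.41, adjusted p = 0.000345). Mpdz, a multi-PDZ scaffold, was lower in both (-1.54 ± 0.35 and -2.53 ± 0.45). Tjp3, encoding ZO-3, was higher in SL vs BL (0.72 ± 0.16, adjusted p = 0.0119) and in BL LRC than in BL non-LRC (1.06 ± 0.20, adjusted p = 0.0103).

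Of 5 claudin partners and proteases, 2 were higher in SL vs BL, 3 in GL vs SL and 5 in GL vs BL, beside 2.83% and 8.66% of all genes higher in SL vs BL and GL vs BL, and 8.3% called either way in GL vs SL. The medians were 0.42 in SL vs BL, 0.66 in GL vs SL and 0.97 in GL vs BL, against 0.00, -0.03 and -0.02 over all genes. Epcam binds claudin-7 and claudin-1 and is cut by the protease of St14, which Spint1 inhibits. Epcam measured 2822 to 4755 units in BL, 4876 to 11684 in SL, and 14312 and 12318 in GL (GL vs BL 1.81 ± 0.13, adjusted p = 7.5e-08). It was lower in LRC than in non-LRC cells of BL (-0.59 ± 0.13, adjusted p = 0.0327) and of SL (-1.02 ± 0.16, adjusted p = 0.00159). Spint1 (1.26 ± 0.18), St14 (0.97 ± 0.17) and Prss8 (0.90 ± 0.27) were also higher in GL than in BL.

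Of 11 barrier transcription factors, 3 were higher and 1 lower in SL vs BL, and 3 were higher and 4 lower in GL vs BL, against 2.83% higher and 2.2% lower of all genes in SL vs BL, and 8.66% and 8.41% in GL vs BL. The medians were -0.16 in SL vs BL and -0.36 in GL vs BL, against 0.00 and -0.02 over all genes. Grhl1 (1.27 ± 0.13), Grhl3 (1.32 ± 0.20) and Ovol1 (1.47 ± 0.17) were higher in SL. Snai2, a repressor of claudin and E-cadherin genes, was lower in SL (-0.66 ± 0.13, adjusted p = 0.00582), although the layers overlapped. Snai2 measured 3132 and 2870 units in SL LRC and 5297 and 6960 in SL non-LRC, against 5555 to 8449 in BL. Grhl1, a grainyhead-like activator, measured 1244 to 1969 units in BL, 3120.4 to 4628 in SL, and 4952 and 5199.9 in GL. Grhl1 (1.65 ± 0.17), Grhl3 (1.22 ± 0.25) and Ovol1 (1.51 ± 0.22) were the 3 called higher in GL vs BL. The 4 called lower were Grhl2, also grainyhead-like (-0.56 ± 0.15, adjusted p = 0.0135), Gata3 (-1.05 ± 0.15), Klf5 (-0.83 ± 0.16) and Ovol2 (-1.36 ± 0.39). In SL LRC, Gata3 (1.31 ± 0.18), Klf5 (1.00 ± 0.19) and Klf4 (0.84 ± 0.20) were higher than in SL non-LRC and Snai2 was lower (-1.02 ± 0.20).

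**Figure D5:**
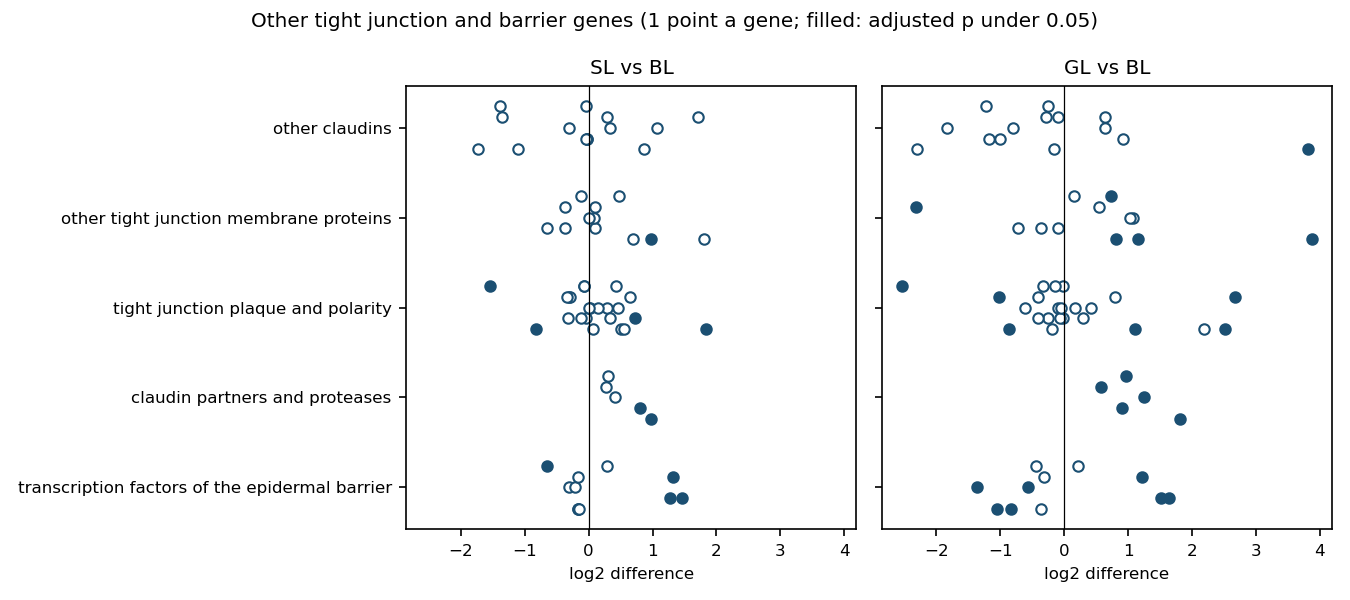
Log2 differences (x axis) of the 65 genes of the 5 lists in SL vs BL (left) and GL vs BL (right), 1 point a gene, filled where the adjusted p was under 0.05. All 5 claudin partners and proteases are filled and right of 0 in GL vs BL, and among other claudins only Cldn10 is filled.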

How the data were processed

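Intensity values, linear and with a floor of 1, were used as deposited by the authors. Their 2% trimmed mean, computed here, was 500 on every array. Per the labels' protocols, RNA was extracted with RNeasy micro, and 5 ng was amplified with NuGEN Ovation Pico WTA and labelled with the Encore Biotin Module; the sources used here name no summarisation software or build. Amplification from 5 ng and the number of arrays limit precision for dim genes. The design table foresaw log2 values, so log2 was taken with nothing added. Of 45101 probe sets (64 controls), 34945 name 1 gene by the platform annotation; the one of highest mean was kept per gene, giving 18193 genes. Background was the 95th percentile of 27 bacterial probe sets per array.

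limma 3.58.1 in R 4.3.3 fitted 5 group means over 12 arrays, with empirical Bayes, a variance trend and Benjamini-Hochberg adjustment over all genes at 0.05. SL vs BL averages both label groups of each layer. Errors on log2 differences are moderated standard errors. The fit was tested on simulated data. The members and lists were chosen with earlier results of these data known. Named are the members, the 2 genes most like each member, and up to 4 list genes of smallest p per direction. Replicate numbers were checked as pairs. Deviations of same-numbered samples correlated at 0.190, 0.109 and 0.112 in BL, while the other 18 same-numbered pairs gave -0.095 to 0.042. The 0.190 pair, BL LRC 1 and BL non-LRC 1, also shares the low BioB level and the absent Y-linked signal. Differently numbered samples reached 0.112 (BL non-LRC 3 with SL non-LRC 2). Whether the numbers mark pairs was therefore not established. Alternatives were another centring, filter, pseudocount, probe set rule, variance trend, array set, replicate block, raised background (added after seeing the data) and each array left out. Promoters come from RefSeq (GRCm38.p6), with 7 of 9 members matched. Cldn25 was not matched because its name is a synonym of several genes. Figures used Python 3.11.15 and matplotlib 3.10.9.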

Additional observations from a re-analysis of the deposited data

How the results depend on the processing

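The members called higher in SL vs BL numbered 4, and fell to 1 with no variance trend, with the high-BioB arrays alone (SL LRC against the mean of the BL groups), with SL LRC minus BL LRC alone and with SL non-LRC minus BL non-LRC alone, and to 2 to 4 with each array left out. Cldn4 kept its call in all of these. In GL vs SL the 0 calls became 1 with median centring, and that was Cldn12, lower in GL (-0.61). Cldn8, higher in GL, was the 1 call with a filter on genes above background on at least 2 samples and with a robust trend. It was also the 1 call with the mean of all probe sets and with GL minus SL LRC alone. The calls were 2 with log2(value + 16) and with values raised to background (Cldn4 and Cldn23, higher). They were 3 with the high-BioB arrays alone (Cldn1, Cldn4 and Cldn8, higher), and 0 to 2 with a BL array left out. GL vs BL kept 4 to 5. The BL label call of Cldn8 went to 0 with no variance trend and with the high-BioB arrays alone, and to 0 to 1 with an array left out; the SL label comparison kept 1 and the difference between label effects 0 in every setting. No difference called in the main fit turned its sign. With the replicate block the counts were 4, 0, 5, 1, 1 and 0, as without it, and Cldn8 in BL had an adjusted p of 0.0179; the block changed no member's call. Over all genes, SL vs BL gave 915 calls and 374 with no variance trend, GL vs SL 1510 and 713, BL LRC vs BL non-LRC 279 and 72, and SL LRC vs SL non-LRC 763 and 150; leaving an array out gave 529 to 985, 575 to 1617, 131 to 288 and 209 to 862, and GL vs BL 1652 to 3159 of 3106. SL vs BL gave 512 and 283 with a single label group, GL vs SL 875 with SL non-LRC alone, the BL label comparison 136 on high-BioB arrays, SL LRC vs SL non-LRC 320 with the array set as a term, and the difference between label effects 0 to 6. The causes were not tested. The high-BioB set holds no SL non-LRC array, so it was not run for the SL label. Signal near background limits Cldn7 in all groups and Cldn4 and Cldn23 in BL.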
